A study of Mus musculus with 6 samples.

Results

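Gata6, Prg4, Alox15, Cd5l, Marco, F5, F10 and Slpi are genes known from the resident macrophages of the pericardial, pleural and peritoneal cavities. All 8 were found among 55487 gene identifiers, and all 8 were among the 15707 genes with enough reads to be tested. They were selected partly on the KO against WT log2 fold changes of these same libraries, which were known when the set was drawn up, so their values in that comparison are given as a description. RNA was sequenced from non-myocyte cells of C57BL/6 mouse hearts, enriched on magnetic beads for Cd11b, the integrin chain encoded by Itgam that marks myeloid cells. The KO group was 3 pools of hearts labelled Egfr mKO, in which Egfr, the gene of the EGF receptor, is deleted in myeloid cells. The WT group was 3 pools labelled Egfr f/f, which carry the floxed gene without the deletion. Each library came from 1 pool of 5 or 6 hearts, about 500 mg of tissue, so the pool is the replicate. The sources used here give no mouse age, sex or bead purity and do not name the promoter that drives the deletion.

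Serous cavities hold a population of large, long-lived macrophages whose identity depends on the transcription factor GATA6, which is induced in them by retinoic acid made by the cells that line the cavity. Peritoneal macrophages of this kind also make clotting factors and clump together at injured surfaces. The pericardial cavity surrounds the heart, so its lining and fluid cells lie next to the tissue that was digested. Several of the 8 genes are used by other cells as well. GATA6 is made in cardiac muscle, fibroblasts and mesothelium, lubricin (Prg4) in lining cells of joints and cavities, coagulation factors in hepatocytes, and SLPI in epithelia and neutrophils.

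The KO libraries held 25199667 to 27485129 reads in genes and the WT libraries 17780707 to 27104205. Egfr averaged 17.3 ± 1.29 CPM (counts relative to library size, after scaling by the trimmed mean of M-values, TMM) in KO and 47.5 ± 6.29 CPM in WT (SD, n = 3 each), with no overlap between groups. The myeloid genes Itgam, Ptprc and Csf1r were present in every pool, at 84.4 to 176, 565 to 1038 and 1718 to 3199 CPM. Some libraries stood apart. KO replicate 1 and WT replicate 1 had the Y-linked gene Ddx3y at 136 and 138 CPM, and the other 4 libraries had it at 0.313 CPM or less. The X-linked gene Xist had the reverse pattern. It was at 0.153 and 0.269 CPM in KO replicate 1 and WT replicate 1 and at 344 to 602 CPM in the other 4. WT replicate 1 also had the globin Hbb-bs at 1103 CPM, against 20.2 to 85.8 CPM elsewhere, and WT replicate 2 had the T cell gene Cd3e at 27.1 CPM.

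The promoter windows of Cd5l, Marco, F10 and Slpi are shown because these 4 genes were higher in KO on average in different ways over the pools, as described below, and because GATA6 binds GATA sites. RefSeq windows of 300 bases (GRCm38.p6, 250 bases before and 50 after the RefSeq gene start) were matched for 5 of the 8 genes, namely Cd5l, Marco, F5, F10 and Slpi. The Cd5l window is chr3:87357631-87357930 (plus strand), that of Marco chr1:120504975-120505274 (minus strand), that of F10 chr8:13037058-13037357 (plus strand) and that of Slpi chr2:164356458-164356757 (minus strand). The RefSeq start of Slpi, at 164356507, lies 32588 bases inside the longer GENCODE M21 gene, which holds a transcript that begins farther upstream, so its window is not at the outermost start. Each is printed 5′ to 3′ along its gene, with capitals where any of 3 motifs matched on either strand. The core of GATA sites was searched as GATAA. For nuclear receptors the repeat unit AGGTCA was used, and for the myeloid factor PU.1 the letters were GAGGAAG.
Cd5l: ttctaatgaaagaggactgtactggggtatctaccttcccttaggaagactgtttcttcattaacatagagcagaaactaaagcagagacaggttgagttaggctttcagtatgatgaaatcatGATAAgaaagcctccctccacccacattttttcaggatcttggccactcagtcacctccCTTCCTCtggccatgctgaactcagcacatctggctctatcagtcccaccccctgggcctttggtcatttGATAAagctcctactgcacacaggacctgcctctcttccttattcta
Marco: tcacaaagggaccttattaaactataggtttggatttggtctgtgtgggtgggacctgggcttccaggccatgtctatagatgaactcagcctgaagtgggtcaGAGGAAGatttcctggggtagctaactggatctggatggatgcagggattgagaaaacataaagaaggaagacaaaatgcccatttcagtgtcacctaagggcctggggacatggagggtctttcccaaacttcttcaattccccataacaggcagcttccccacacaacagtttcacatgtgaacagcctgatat
F10: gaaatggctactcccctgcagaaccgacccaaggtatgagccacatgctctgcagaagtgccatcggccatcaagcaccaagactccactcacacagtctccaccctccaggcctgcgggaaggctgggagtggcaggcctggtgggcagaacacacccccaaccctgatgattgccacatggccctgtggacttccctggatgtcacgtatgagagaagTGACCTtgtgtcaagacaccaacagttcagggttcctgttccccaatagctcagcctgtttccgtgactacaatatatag
Slpi: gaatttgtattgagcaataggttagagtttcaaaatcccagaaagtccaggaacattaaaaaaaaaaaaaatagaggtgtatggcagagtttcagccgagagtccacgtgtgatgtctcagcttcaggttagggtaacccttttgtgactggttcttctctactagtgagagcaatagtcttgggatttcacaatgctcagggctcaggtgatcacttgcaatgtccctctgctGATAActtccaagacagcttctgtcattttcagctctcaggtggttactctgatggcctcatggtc

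GATAA was present in 2 of the 5 windows, those of Cd5l and Slpi, and in 25.4% of all 32851 mouse windows of this length. The Cd5l window held it at positions -126 and 3 relative to the RefSeq gene start, whose first base is 0, and the Slpi window at -16. AGGTCA was present in the F10 and F5 windows (16.3% of all windows), and GAGGAAG in those of Cd5l and Marco (13.6%). TGACTCA, the AP-1 site, was in 0 of the 5 and in 5.2% of all windows. No base lay in matches to more than 1 of the 4 motifs. A match is a string of letters and was not tested as a binding site.

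Among the 8 genes, 7 had positive log2 fold changes and 1, Gata6, a negative one, as had 50.8% and 49.2% of all genes tested. The log2 fold changes (KO minus WT, from edgeR over all genes) had a median of 1.69 over the 8 and of 0.007 over all genes tested. For 5 of the 8, Prg4, Alox15, Cd5l, Marco and F10, every KO pool lay above every WT pool, which was so for 9.59% of all genes tested. None of the 8 passed edgeR's adjusted threshold of 0.05, which 0.0127% of all genes passed. At an unadjusted p below 0.05 there were 7 of the 8, all higher in KO, where 4.77% of all genes were higher and 10.6% lower at that threshold. DESeq2 called 4 of the 8 higher (1.13% of its genes were higher) and limma-voom called 0. Without WT replicate 1 edgeR called Cd5l, Marco, F10 and Slpi higher and Gata6 lower, where 2.33% of all genes were called higher and 5.97% lower. Gata6, the gene that defines these macrophages, thus had the opposite sign to the other 7, though its groups overlapped. Other cells of the heart make it too, so its total does not give its level in macrophages. The 8 were selected partly on this comparison, so their counts beside the shares of all genes are a description and not a test. They are described singly, and whether they come from 1 cell type was not tested. These bulk values cannot tell more cells of a type from more RNA per cell.

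**Figure D1:**
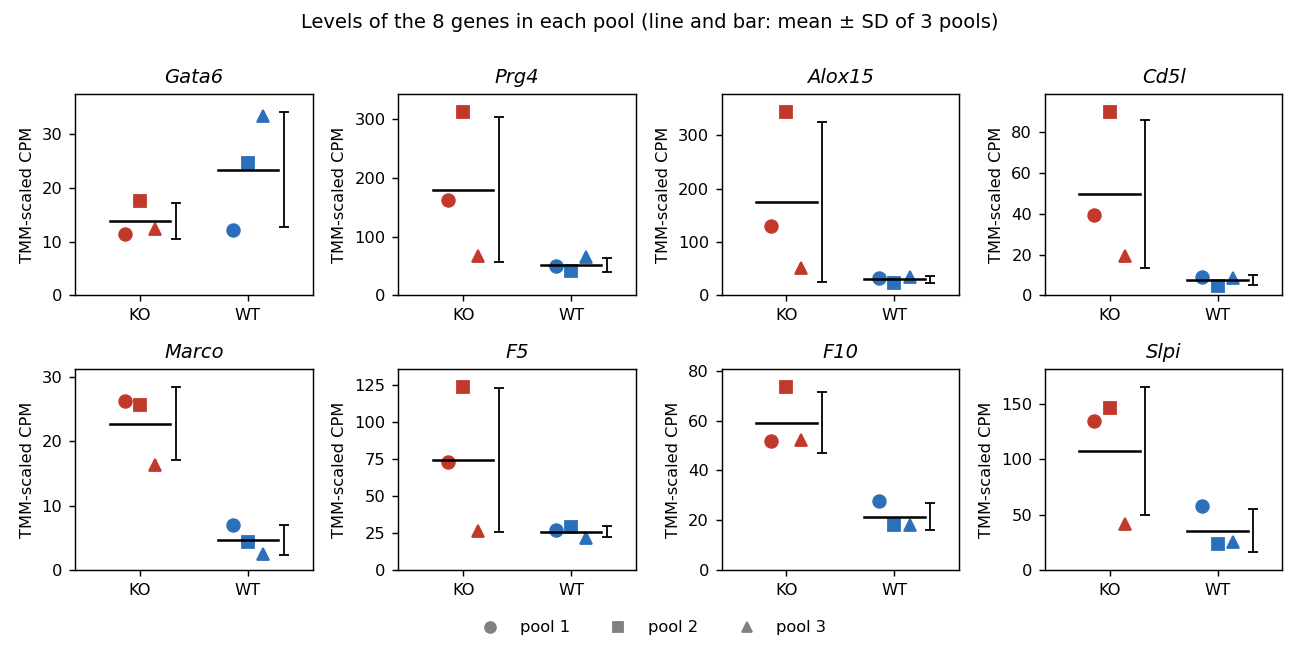
Points give TMM-scaled CPM of each gene (vertical axes, each from 0) in the 3 KO pools (red) and 3 WT pools (blue); lines and bars give mean ± SD. Prg4, Alox15, Cd5l and F5 are highest in KO replicate 2 (311, 343, 89.8 and 124 CPM), as are F10 and Slpi (73.3 and 146 CPM). Gata6 is highest in WT replicate 3 (33.4 CPM).

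Gata6 (ENSMUSG00000005836, chromosome 18 at 11052064 to 11085635, plus strand) encodes the transcription factor that defines large cavity macrophages. It stood at 11.4, 17.6 and 12.4 CPM in KO replicates 1, 2 and 3, against 12.1, 24.7 and 33.4 CPM in WT replicates 1, 2 and 3. WT replicates 2 and 3 were the highest of the 6 pools, WT replicate 1 lay among the KO pools, and the groups overlapped. Its log2 fold change was -0.76 (SE 0.35). Leaving out WT replicate 1 moved it to -1.07 and made it pass (edgeR adjusted p = 0.0339), while leaving out WT replicate 3 moved it to -0.41. An antisense gene, 1010001N08Rik, overlaps Gata6, and the sources used here do not say whether counting used strand. Markers of other cells that use Gata6 were lower on average in the KO pools. Summed over 10 genes, fibroblast markers were at 1628 to 2373 CPM in KO and 2130 to 6729 CPM in WT, with WT replicates 2 and 3 highest there too. The 12 mesothelial markers summed to 38.9 to 55.2 CPM in KO and 62.2 to 95.8 CPM in WT, and the 10 cardiomyocyte markers to 255 to 466 CPM in KO and 346 to 587 CPM in WT. All 12, 10 and 10 of these markers had negative log2 fold changes, and their part in the Gata6 value was not tested.

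Cd5l (ENSMUSG00000015854, chromosome 3 at 87357881 to 87371073, plus strand) encodes a secreted scavenger protein of macrophages, also called AIM. Its level was 39.5, 89.8 and 19.5 CPM in KO replicates 1, 2 and 3, against 9.12, 4.59 and 8.71 CPM in the WT replicates. The lowest KO value was 2.14-fold above the highest WT value. The mean was 6.64-fold higher in KO and 3.95-fold higher without KO replicate 2. The log2 fold change was 2.72 (SE 0.55), the largest of the 8.

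Marco (ENSMUSG00000026390, chromosome 1 at 120474538 to 120505024, minus strand) encodes a class A scavenger receptor that binds bacteria and particles and shares a scavenger receptor cysteine-rich domain with CD5L. It was counted 689, 655 and 420 times in the KO libraries and 185, 85 and 55 times in the WT libraries. In CPM this was 26.3, 25.7 and 16.3 in KO replicates 1, 2 and 3, against 7.12, 4.43 and 2.56 in the WT replicates. All KO pools were high and close to each other, unlike those of Cd5l, and the lowest was 2.29-fold above the highest WT pool. A log2 fold change of 2.27 (SE 0.37) resulted, and it stayed between 1.98 and 2.71 when any 1 library was left out.

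Alox15 (ENSMUSG00000018924, chromosome 11 at 70344152 to 70352031, minus strand) encodes 12/15-lipoxygenase, which oxidizes arachidonic and linoleic acid and is a known product of resident peritoneal macrophages. Its level was 131, 343 and 52.2 CPM in KO replicates 1, 2 and 3, against 32.4, 22.9 and 34.3 CPM in the WT replicates. The KO pools spanned a 6.57-fold range and the WT pools a 1.5-fold range. The mean ratio of 5.87 was 3.06 without KO replicate 2, and the log2 fold change was 2.55 (SE 0.60).

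Prg4 (ENSMUSG00000006014, chromosome 1 at 150449412 to 150466165, minus strand) encodes lubricin, the proteoglycan that lubricates joint and serosal surfaces. It followed the same order among the KO pools, with 162, 311 and 66.2 CPM in KO replicates 1, 2 and 3, against 49.8, 41.0 and 64.5 CPM in the WT replicates. The lowest KO pool was only 1.03-fold above the highest WT pool. Its mean ratio was 3.47, or 2.2 without KO replicate 2, with a log2 fold change of 1.80 (SE 0.49). Tpr, on the other strand, overlaps it.

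The clotting genes F5 and F10 differed in how they spread over the pools. F10 (ENSMUSG00000031444, chromosome 8 at 13037308 to 13056676, plus strand) encodes the zymogen of factor Xa, the protease that turns prothrombin into thrombin. It stood at 51.8, 73.3 and 52.2 CPM in KO replicates 1, 2 and 3, against 27.6, 18.4 and 18.3 CPM in the WT replicates. Its lowest KO value was 1.88-fold above its highest WT value, giving a log2 fold change of 1.46 (SE 0.21). F5 (ENSMUSG00000026579, chromosome 1 at 164151838 to 164220277, plus strand) encodes factor V, the cofactor of factor Xa. It stood at 73.5, 124 and 26.8 CPM in KO replicates 1, 2 and 3, against 27.1, 29.4 and 22.1 CPM in the WT replicates. KO replicate 3 lay among the WT pools, so the groups overlapped, and the log2 fold change was 1.51 (SE 0.47), or 0.94 without KO replicate 2. Predicted genes overlap F5, 1 of them on its strand.

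Slpi (ENSMUSG00000017002, chromosome 2 at 164354070 to 164389095, minus strand) encodes a secreted inhibitor of neutrophil elastase and cathepsin G. It stood at 135, 146 and 41.5 CPM in KO replicates 1, 2 and 3, against 58.1, 23.8 and 25.3 CPM in the WT replicates. WT replicate 1 was above KO replicate 3, so the groups overlapped, and the log2 fold change was 1.59 (SE 0.51). The 12 neutrophil markers summed to 851 to 3123 CPM in KO and 674 to 2577 CPM in WT. They were highest in KO replicate 1 and WT replicate 1. Slpi was highest in KO replicates 2 and 1, and among the WT pools in WT replicate 1. The part of neutrophils in the Slpi values was not tested.

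Per kilobase of merged exons, the scale on which levels of different genes can be compared, Slpi was the most abundant of the 8 in both groups. In KO it averaged 91.2 ± 48.7 CPM per kb, followed by Alox15 (71.4 ± 61.2), Prg4 (42.0 ± 28.8), Cd5l (24.4 ± 17.8), F10 (21.6 ± 4.50), Marco (11.8 ± 2.92), F5 (10.1 ± 6.52) and Gata6 (2.12 ± 0.51). Of the 7 neighbouring pairs in this order, only F10 over Marco and F5 over Gata6 differed by more than the sum of their SDs. In WT the order was Slpi (30.3 ± 16.4), Alox15 (12.2 ± 2.48), Prg4 (12.1 ± 2.78), F10 (7.85 ± 1.96), Cd5l (3.67 ± 1.23), Gata6 (3.59 ± 1.64), F5 (3.53 ± 0.50) and Marco (2.44 ± 1.19). There, only F10 over Cd5l differed by more than that. Among all genes tested, Alox15 stood at a median percentile of 94.3 in KO and 77.2 in WT, Cd5l at 83.9 in KO and 50.4 in WT, and Gata6 at 35.6 in KO and 47.4 in WT.

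**Figure D2:**
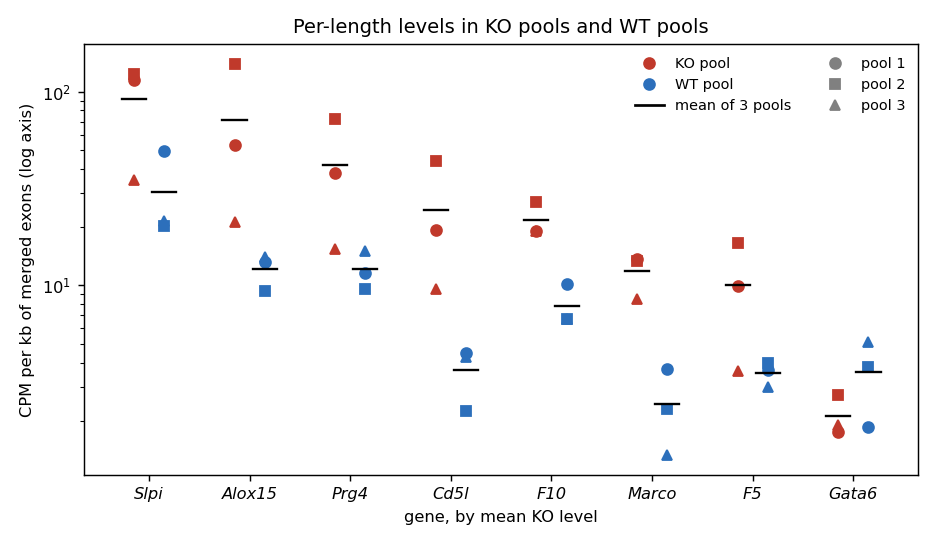
Points give CPM per kb of merged exon length (log axis) in each KO pool (red) and WT pool (blue), with genes ordered by mean KO level and lines at the mean of 3 pools. Slpi, Alox15 and Prg4 lead in both groups, and Gata6 is last in KO at 2.12 CPM per kb.

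The 7 genes that were higher in KO differed in their profiles over the pools, without a clean split into groups. Likeness was measured as the root mean square distance between centred log2 CPM profiles over the 6 pools, on the log2(CPM + 0.1) scale, where 0 means the same profile. Alox15 and Cd5l were closest (0.267), followed by Prg4 with F5 (0.347) and Prg4 with Alox15 (0.356). In these 4 genes KO replicate 2 was highest, KO replicate 1 next and KO replicate 3 lowest of the KO pools, and the highest KO pool was 4.6- to 6.57-fold above the lowest. Slpi had the same order among the KO pools, with a 3.52-fold range, and lay 0.467 from F5 and 0.517 from Prg4. Within the 4, Cd5l and F5 were 0.758 apart, farther than F5 and F10 (0.581). Marco and F10 were nearest to each other (0.553), and their KO pools spanned only 1.61- and 1.41-fold. Gata6 was 1.22 to 1.77 away from the other 7, and these 7 distances were the largest of the 28 pairs.

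**Figure D3:**
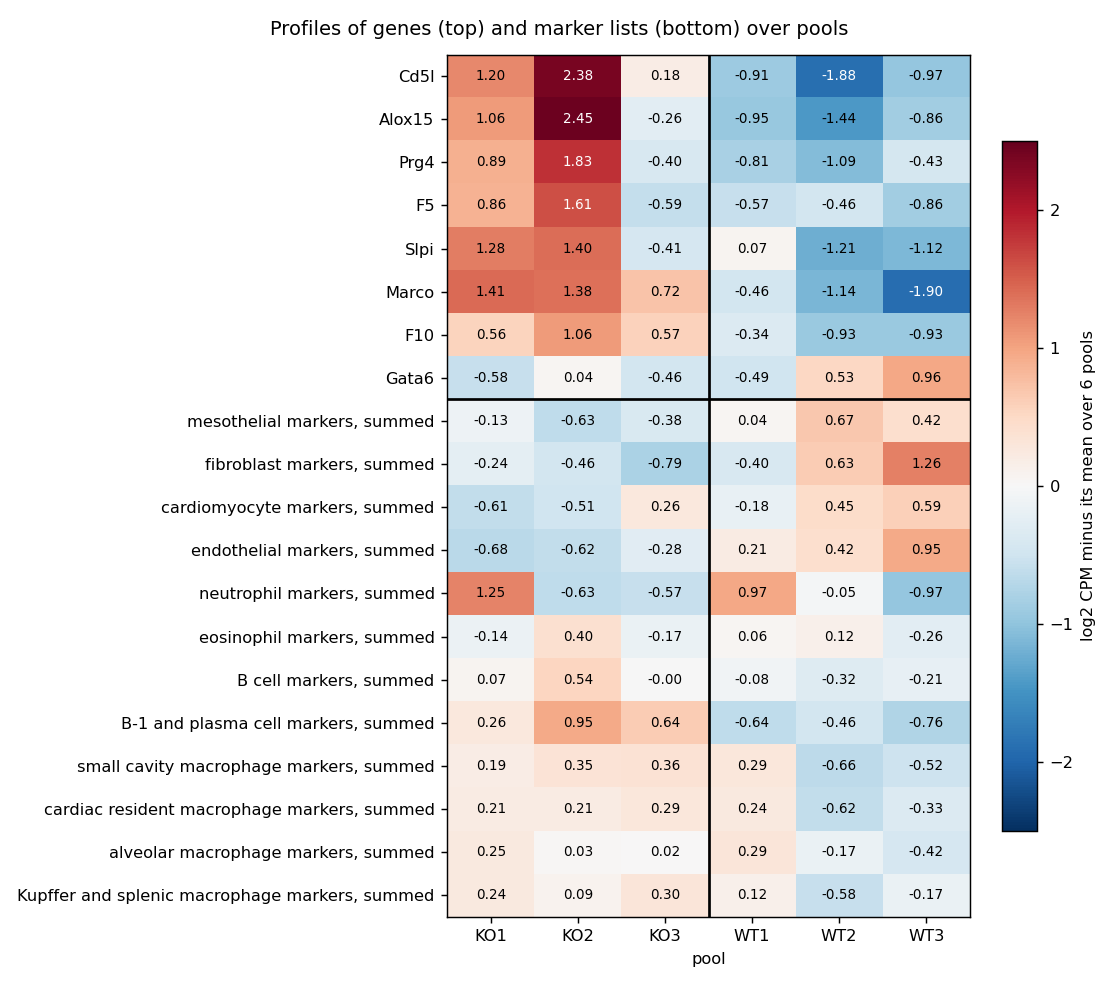
Each cell gives log2 CPM minus its mean over the 6 pools (columns, KO left of WT) for the 8 genes (top) and for the summed level of marker lists (bottom). Red is above and blue below the mean of the row. Cd5l, Alox15, Prg4 and F5 peak in KO replicate 2 (2.38, 2.45, 1.83 and 1.61), while Gata6 and the fibroblast markers peak in WT replicate 3 (0.96 and 1.26).

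The comparison was also read separately in the libraries with and without Y-linked expression. Between KO replicate 1 and WT replicate 1, which have it, the KO to WT ratio was 4.34 for Cd5l, 4.04 for Alox15, 3.7 for Marco, 3.26 for Prg4, 2.71 for F5, 2.32 for Slpi, 1.88 for F10 and 0.939 for Gata6. Over the other 2 pools of each group the ratios of means were 8.22, 6.89, 6.01, 3.57, 2.92, 3.82, 3.42 and 0.517 in the same order of genes. The direction was the same in both parts for all 8 genes. The first part holds 1 pool a group and has no replicate check.

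The summed RNA of macrophage markers also differed between pools. The 12 cardiac resident macrophage markers summed to 12970 to 13670 CPM in KO and to 7299 to 13240 CPM in WT, with WT replicate 1 at the KO level. All 12 had positive log2 fold changes (median 0.42). Relative to that sum, Cd5l was at 0.380 ± 0.282% in KO and 0.0766 ± 0.0188% in WT, Marco at 0.173 ± 0.0469% in KO and 0.0478 ± 0.0168% in WT, and F10 at 0.449 ± 0.101% in KO and 0.222 ± 0.0254% in WT (SD, n = 3 each). For these 3 genes every KO pool remained above every WT pool on this scale. For Prg4, Alox15, F5, Slpi and Gata6 the groups overlapped on it. The ratio of means was 4.96 for Cd5l, 4.27 for Alox15, 3.63 for Marco, 2.48 for Prg4, 2.35 for Slpi, 2.02 for F10, 2.0 for F5 and 0.39 for Gata6.

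Markers of other cells known to use these genes did not all move with them. Hepatocyte markers, for the clotting factors, summed to 0.153 to 0.864 CPM in KO and 0.231 to 0.512 CPM in WT, with Fgb at 0 reads in every library and 5 of the 6 genes under 10 reads in each. The 6 eosinophil markers, for Alox15, summed to 12.5 to 18.5 CPM in KO and 11.7 to 15.3 CPM in WT, with Epx at 0 reads in every library. The 8 Kupffer and splenic macrophage markers, for Cd5l and Marco, summed to 666 to 771 CPM in KO and 419 to 682 CPM in WT, and the 10 alveolar macrophage markers, for Marco, to 263 to 309 CPM in KO and 194 to 318 CPM in WT. Markers of small cavity macrophages, the other macrophage type of these spaces, summed over 8 genes to 5531 to 6224 CPM in KO and 3078 to 5933 CPM in WT. Most of this sum was a single gene of MHC class II, H2-Ab1, at 3978 to 4425 CPM in KO and 2043 to 4169 CPM in WT. The sum therefore mainly follows H2-Ab1 and is not a measure of small cavity macrophages. Taken singly, all 8 had positive log2 fold changes (median 0.50), and the groups overlapped for 7 of them. The 10 markers of B-1 and plasma cells, of which B-1 cells also live in serous cavities, summed to 816 to 1321 CPM in KO and 404 to 496 CPM in WT, highest in KO replicate 2. Of these 10, 7 had positive and 3 negative log2 fold changes. Among them Igha, the IgA constant region, stood at 315, 745 and 514 CPM in KO replicates 1, 2 and 3, against 23.7, 88.9 and 35.7 CPM in the WT replicates. Without Igha the other 9 summed to 500.5 to 577 CPM in KO and 368 to 413 CPM in WT. In 3 of the 10, Igha, Jchain and Xbp1, every KO pool lay above every WT pool (9.59% of all genes). In 1, Sdc1, every KO pool lay below (10.1% of all genes). The groups overlapped for the other 6, Cd5, Bhlhe41 and Zbtb32 among them, so the genes of the list did not all shift alike. The summed values did not overlap between groups, with or without Igha. The 10 B cell markers summed to 1364 to 1988 CPM in KO and 1096 to 1291 CPM in WT. All 10 had positive log2 fold changes (median 0.62). In 6 of them every KO pool lay above every WT pool (9.59% of all genes). The part of these cells in the values of the 8 genes was not tested.

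Other genes of cavity macrophages were read from a list of 25 that leaves out the 8. This list and those further below were drawn up with earlier results of these data known. Their counts are therefore descriptions too. All 25 were tested, 18 had positive and 7 negative log2 fold changes, and the median was 0.26. None passed in edgeR. At an unadjusted p below 0.05 there were 7 higher and 1 lower (4.77% and 10.6% of all genes), DESeq2 called 4 higher and 1 lower (1.13% and 4.39% of all its genes), and limma-voom called 0. In 6 of the 25 every KO pool lay above every WT pool, and in 2 every KO pool lay below (9.59% and 10.1% of all genes). Saa3, an acute-phase apolipoprotein, stood at 46.9, 54.1 and 23.3 CPM in KO replicates 1, 2 and 3, against 6.77, 4.12 and 6.52 CPM in the WT replicates. The fitted change was 2.83 on the log2 scale (SE 0.34; edgeR adjusted p = 0.0799), and it passed without KO replicate 3 (adjusted p = 0.0407) or without WT replicate 1 (adjusted p = 0.0148). Serpinb2, the inhibitor of plasminogen activators, stood at 45.7, 83.2 and 27.1 CPM in the KO replicates, against 13.7, 6.62 and 19.8 CPM in the WT replicates, or 1.96 higher on the log2 scale (SE 0.48; edgeR adjusted p = 0.192). Its KO pools had the order seen in Cd5l, Alox15 and Prg4. Cxcl13, the chemokine that draws B cells to cavities, averaged 58.3 ± 9.49 CPM in KO and 23.2 ± 15.2 CPM in WT (SD, n = 3 each). The difference of 1.32 on the log2 scale (SE 0.40; edgeR adjusted p = 0.227) became 2.02 without WT replicate 1, where it passed (adjusted p = 0.0119). Cd93, a lectin-like receptor also made by endothelial cells, averaged 239 ± 24.5 CPM in KO and 346 ± 50.9 CPM in WT (log2 fold change -0.53, SE 0.15, edgeR adjusted p = 0.216). The 10 endothelial markers were also lower in each KO pool, at 1130 to 1486 CPM in sum against 2090 to 3490 CPM in WT.

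**Figure D4:**
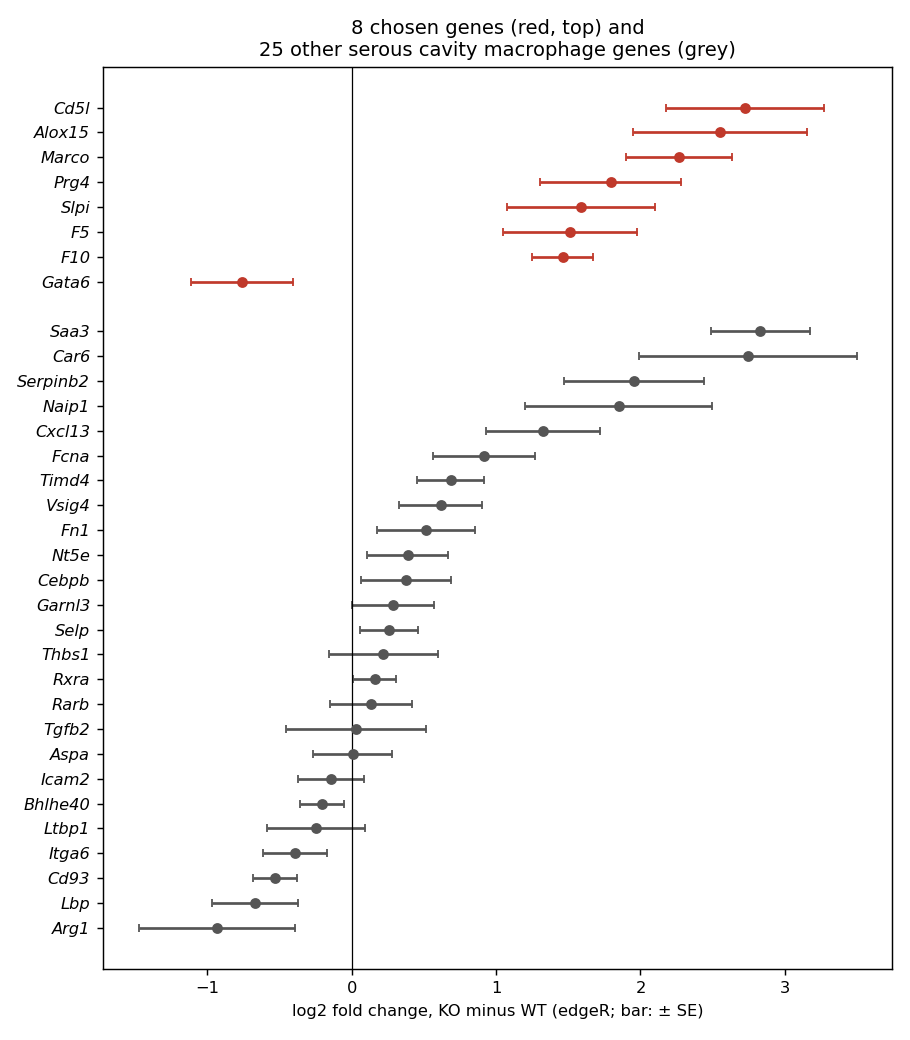
Points give the log2 fold change, KO minus WT, from edgeR with bars of ± SE, for the 8 genes (red) and for 25 other genes of serous cavity macrophages (grey). Among the 25, values run from -0.93 (Arg1) to 2.83 (Saa3), and 7 lie below 0.

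Other genes named by rule for each of the 8 were those with the nearest profiles among 12747 candidates. Serpinb2 was the nearest gene to Alox15 (distance 0.443), and also among the nearest to Cd5l (0.392) and Prg4 (0.393). Vmn2r26, a vomeronasal receptor gene at 0.417 to 3.57 CPM, was nearest to Prg4 (0.298), and Saa3 was nearest to Cd5l (0.36). Padi4, a peptidylarginine deiminase, was nearest to F5 (0.247) and to Slpi (0.365). It averaged 51.4 ± 27.3 CPM in KO and 21.7 ± 6.09 CPM in WT (SD, n = 3 each). Gbp2b, a guanylate-binding protein gene, was nearest to F10 (0.21), and the lysozyme gene Lyz1 to Marco (0.344). Other genes among the 3 nearest were Sertad4 and Drp2 for Gata6, Hal for Prg4 and Alox15, Fabp7 for Cd5l, Rab38 for Marco, Senp8 and Rab39 for F5, Spns3 and Serpina3g for F10 and Zfp811 for Slpi, at distances of 0.073 to 0.537. Lyz1 averaged 976 ± 185 CPM in KO and 158 ± 80.6 CPM in WT. Lyz2, another lysozyme gene, went the opposite way, at 17.4, 19.2 and 19.3 CPM in KO replicates 1, 2 and 3. In WT replicates 1, 2 and 3 it stood at 6700, 4074 and 4327 CPM. Lyz2 thus separated the KO pools from the WT pools without overlap, as Egfr did. The part of either gene in the values of the 8 was not tested. Whether the Lyz1 values are linked to those of Lyz2 was not tested. Camsap3, whose product binds microtubule ends, was nearest to Gata6 (0.052), averaging 0.712 ± 0.201 CPM in KO and 1.32 ± 0.674 CPM in WT.

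Other clotting genes held values on both sides of 0. Of 17 listed genes 14 were tested, 0 passed in edgeR, 6 were positive and 8 negative, and the median log2 fold change was -0.20. At an unadjusted p below 0.05 there were 0 higher and 1 lower (4.77% and 10.6% of all genes), DESeq2 called 0 higher and 1 lower (1.13% and 4.39%), and limma-voom called 0. That gene was F2r, a thrombin receptor, at 39.9 ± 10.5 CPM in KO and 77.2 ± 28.1 CPM in WT (SD, n = 3 each, log2 fold change -0.95, edgeR adjusted p = 0.228), which passed as lower without WT replicate 1 (adjusted p = 0.0259), where 5.97% of all genes were lower. F8, the cofactor of factor IXa, had a log2 fold change of -0.81, Ggcx, which gamma-carboxylates clotting factors, -0.29, and the inhibitor Tfpi -0.20. F7 ends 1498 bases before F10 begins, on the same strand, and averaged 2.35 CPM in KO and 1.95 CPM in WT, with a log2 fold change of 0.26 (SE 0.37). F13a1, the transglutaminase subunit stored in macrophages, averaged 2162 ± 116 CPM in KO and 1754 ± 541 CPM in WT.

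Scavenger receptors other than Marco were split, with 6 of 12 positive, 6 negative and a median of 0.07. None passed in edgeR, where 1 was higher and 3 lower at an unadjusted p below 0.05 (4.77% and 10.6% of all genes), DESeq2 called 0 higher and 3 lower (1.13% and 4.39%), and limma-voom called 0. Scara3 (-1.30, SE 0.29), Scara5 (-1.22, SE 0.35) and Cd36 (-0.41, SE 0.14), a fatty acid receptor also used by endothelium, were lower in every KO pool. Msr1, another class A receptor, stood at 181, 221 and 204 CPM in KO replicates 1, 2 and 3, against 185, 102 and 133 CPM in the WT replicates, and overlapped. Without WT replicate 1 edgeR called 2 of the 12 higher, Msr1 among them (0.79, adjusted p = 0.0289), and 2 lower (2.33% and 5.97% of all genes).

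Lipoxygenase and leukotriene genes other than Alox15 had log2 fold changes from -1.20 to 0.72. Of 10 listed genes 7 were tested, 5 were positive and 2 negative, and the median was 0.16. None passed in edgeR, with 1 higher and 1 lower at an unadjusted p below 0.05 (4.77% and 10.6% of all genes), while DESeq2 called 0 higher and 1 lower (1.13% and 4.39%) and limma-voom 0. Alox12, the platelet lipoxygenase, averaged 6.72 ± 1.32 CPM in KO and 15.4 ± 4.0 CPM in WT (log2 fold change -1.20, SE 0.24, edgeR adjusted p = 0.173). Ltc4s, leukotriene C4 synthase, averaged 74.6 ± 5.80 CPM in KO and 45.2 ± 16.9 CPM in WT (0.72, SE 0.25). Alox5 and its activator Alox5ap both had 0.41. These 3 passed as higher without WT replicate 1, with edgeR adjusted p-values of 0.0251 for Ltc4s and 0.0252 for the other two, and Alox12 passed as lower (-1.33, adjusted p = 0.0222). In that set of libraries 2.33% of all genes were higher and 5.97% lower.

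Proteases and inhibitors around Slpi had 5 positive and 3 negative values among 8 tested of 10, with a median of 0.22. None passed in edgeR, with 2 higher and 1 lower at an unadjusted p below 0.05 (4.77% and 10.6% of all genes), while DESeq2 called 0 higher and 1 lower (1.13% and 4.39%) and limma-voom 0. Elane and Ctsg, the elastase and cathepsin G that SLPI inhibits, were at most 1.42 and 0.423 CPM in any pool and were not tested. Wfdc17, which like Slpi encodes a secreted protein with a whey acidic protein domain, averaged 167 ± 5.17 CPM in KO and 106 ± 38.2 CPM in WT, with no overlap (0.66, SE 0.23). It passed as higher without WT replicate 1 (1.00, edgeR adjusted p = 0.0134), where 2.33% of all genes were higher. Wfdc2 had -1.62 (SE 0.49), or -0.93 without WT replicate 2. Serpinb1a, an inhibitor of neutrophil proteases, had 0.51 (SE 0.20), or 0.25 without KO replicate 2. Prtn3 had 0.83 (SE 0.84), with 0.30 without WT replicate 2 and 1.48 without WT replicate 1.

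GATA factors and retinoid genes had mostly negative log2 fold changes, as Gata6 had. Of 20 listed genes 17 were tested, 5 positive and 12 negative, with a median of -0.84. None passed in edgeR, with 0 higher and 10 lower at an unadjusted p below 0.05 (4.77% and 10.6% of all genes), while DESeq2 called 0 higher and 4 lower (1.13% and 4.39%) and limma-voom 0. Without WT replicate 1 edgeR called 0 higher and 7 lower (2.33% and 5.97%). Gata2, a factor of endothelium and mast cells, averaged 17.1 ± 3.38 CPM in KO and 31.9 ± 7.75 CPM in WT, without overlap (-0.90, SE 0.21, edgeR adjusted p = 0.185). Zfpm2, a cofactor of GATA4 and GATA6, averaged 6.03 ± 0.12 CPM in KO and 12.5 ± 5.24 CPM in WT (-1.05, SE 0.30, or -0.69 without WT replicate 3). Cyp26b1, which degrades retinoic acid, had -1.20 (SE 0.39), and the retinol carrier Rbp4 -1.27 (SE 0.42), or -0.80 without WT replicate 3. Aldh1a2, the retinoic acid synthase of mesothelium, stood at 27.2, 38.1 and 34.6 CPM in KO replicates 1, 2 and 3, against 31.3, 27.3 and 28.2 CPM in the WT replicates, and overlapped (0.20, SE 0.15). The receptor Rarb, a known target of retinoic acid, averaged 4.64 ± 1.70 CPM in KO and 4.22 ± 0.28 CPM in WT. Endothelial, fibroblast and mesothelial markers, which are lower in the same pools, come from cells that use several of these genes, and their part was not tested.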

How the data were processed

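Libraries were made from total RNA with a directional kit after RNeasy extraction, per the labels' protocols. The deposited values are raw counts of reads per Ensembl gene, 1 table per library, not normalized by the authors. The submitters' processing notes name STAR, HTSeq, DESeq2 and build GRCm38. Versions, annotation and strand are not stated there. Reads outside genes (5.9% to 8.62% of all), in several genes (1.49% to 1.72%) or at several places (7.58% to 8.67%) were left out. Symbols were matched for 55141 of 55487 identifiers, and coordinates and exon lengths come from GENCODE M21 (GRCm38).

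KO was compared with WT by edgeR 4.0.16 in R 4.3.3 (filterByExpr at a minimum count of 10, TMM, glmQLFit and glmQLFTest, genotype only), with two-sided p-values adjusted by the Benjamini-Hochberg method over 15707 genes. The SE is the size of the log2 fold change over the square root of F. DESeq2 1.42.0, limma-voom (limma 3.58.1), other scaling and filters, a replicate block and each library left out were alternatives, and leaving out both libraries with Y-linked expression was added after seeing the data. The procedure was tested on simulated counts. Replicates of a group differed by more than counting noise (chi-square per degree of freedom 34.7 to 76.5). P-values set the difference between groups against the spread between pools.

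The 8 genes and the lists were chosen with earlier results of these data known. Named in each list are up to 4 tested genes with the smallest p-values with a mean of 1 CPM or more, and for each of the 8 genes the nearest profiles among genes above the same level, without predicted genes or antigen receptor segments. F7, F13a1, Elane, Ctsg, Arg1, Aldh1a2, Rarb and Igha were named for their place in the pathway, after their values were seen. Lyz2 was named beside Lyz1, also after its values were seen. The same holds for H2-Ab1, Jchain, Xbp1, Sdc1, Cd5, Bhlhe41 and Zbtb32, named within their marker lists. Figures were drawn with matplotlib 3.10.9.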

Additional observations from a re-analysis of the deposited data

How the results depend on the processing

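Counts of genes called changed with the tool and the libraries. With all 6 libraries edgeR called 0 genes higher and 2 lower. DESeq2 called 170 higher and 661 lower, edgeR without its filter 139 and 643, the replicate block 2 and 1, and limma-voom 0 and 1. Without both libraries with Y-linked expression 63 were higher and 344 lower. Leaving out 1 library gave 0 to 376 higher and 1 to 962 lower, both highest without WT replicate 1. Of the companion genes, 0 were called in edgeR. DESeq2 called 4 higher and 11 lower, no filter 4 and 8, the set without Y-linked libraries 5 and 4, and leaving out 1 library 0 to 11 in each direction. Of the 8 genes, 0 were called in edgeR. DESeq2 called 4 higher (Alox15, Cd5l, Marco and F10), no filter 7 (all but Gata6, against 0.479% of genes higher) and the set without Y-linked libraries 2 (Marco and F10, against 0.4% higher). Leaving out 1 library gave 0 to 4 higher and 0 to 1 lower, where WT replicate 1 alone made calls (Cd5l, Marco, F10 and Slpi higher, Gata6 lower, against 2.33% and 5.97% of genes). The causes of these changes were not tested. Each fit without a library also has fewer samples. The direction of all 8 genes was the same in every one of the settings run. The replicate numbers were not taken as pairs: the correlation of deviations between same-numbered pools was 0.128, -0.154 and 0.024, and with the replicate block 0 of the 8 genes passed.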
